A study of Mus musculus with 16 samples.

Results

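The 10 genes described here, Arntl, Clock, Per1, Per2, Per3, Cry1, Cry2, Nr1d1, Nr1d2 and Dbp, form the core of the circadian clock. They were taken by gene symbol from a table of 24411 genes, in which each of them has 1 row. The clock is a transcriptional loop that runs in most cells of the body, macrophages and microglia included. ARNTL (also called BMAL1) and CLOCK pair up and activate genes with an E-box in their promoter, among them the Per and Cry genes, whose products then repress that pair. The nuclear receptors encoded by Nr1d1 and Nr1d2 (REV-ERBα and REV-ERBβ) close a second loop by repressing Arntl, and DBP carries the rhythm to output genes through D-box sites. In macrophages the clock is known for gating the strength of the response to bacterial products.

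RNA was sequenced from brain macrophages of 8 bone marrow chimeras, which makes 16 libraries in 4 groups of 4. Recipients were wild-type C57BL/6J mice, irradiated with 950 cGy at an age of 6 weeks and transplanted with congenic wild-type bone marrow that carries the CD45.1 allele. Engrafted cells (Ly6C/G-negative, CD11b-positive, low for CD45.1) and host microglia (the same gate, low for CD45.2) were sorted from the perfused brain of each mouse, 10000 cells per sample, so host microglia had also lived through the irradiation. Mice 1 to 4 had received 2.5 mg/kg of lipopolysaccharide (LPS), a cell wall component of Gram-negative bacteria, 12 h before they were killed, and mice 5 to 8 (called control here) were not injected according to the labels. The interval from transplantation to sorting was 9 months in the study's methods, while every library carries the label of 3.5 or 9 months. The hour of the day at which each mouse was killed is not given in the sources used here. Clock genes follow the hour of day, so for these 10 genes the challenge, the injection itself and any difference in hour cannot be told apart.

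The 16 libraries held between 395283 and 1203597 reads on genes (median 820588), and the shallowest was that of the engrafted cells of LPS mouse 4. Levels are given in CPM, the usual scaling of a gene's reads to a common library size, here after TMM adjustment (trimmed mean of M-values). Microglial genes (Cx3cr1, P2ry12, Tmem119, Csf1r and Sall1) were present in both populations but unequally, and P2ry12, Tmem119 and Sall1 were lower in engrafted cells of control mice, Sall1 by 17.7-fold. Their summed level was 9970 to 11020 CPM in engrafted and 13965 to 16352 CPM in host control libraries, and 3618 to 4602 and 5920 to 8008 CPM with LPS. Ms4a7, Apoe, Ccr2 and Mrc1 were higher in engrafted cells in 4 of 4 cases, without and with LPS. Red blood cell transcripts stood out in mice 8 and 4, at 2877.7 and 4297.7 CPM in the engrafted and 511.62 and 553.66 CPM in the host libraries, against 1.60 to 117 CPM in the libraries of the other mice.

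The clock genes were thinly covered. Of the 160 values (10 genes in 16 libraries), 84 rested on at least 10 reads and 3 were 0. Per1, with 1305 reads over all libraries, was the only one of the 10 with 10 or more reads in every library. Dbp had 532 reads, Nr1d1 287, Clock 276, Nr1d2 271, Cry2 193, Arntl 165, Cry1 163, Per2 96 and Per3 53. Where no read was counted, a level of up to 3 reads remains possible, equal to 2.39 CPM in the deepest and 8.41 CPM in the shallowest library, and 10 reads amount to 7.98 to 28 CPM. These limits cover counting error only, since no removal of PCR duplicates is described. The protocol captures the 3′ end of RNA, so levels were not compared between genes.

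On the mm9 genome, 4 of the genes share a chromosome with another of the 10. Arntl (NM_007489) lies at chr7:120350979-120457640 and Dbp (NM_016974) at chr7:52960617-52965573, both on the plus strand. Per1 (NM_011065) is at chr11:68912458-68923459 on the plus strand and Nr1d1 (NM_145434) at chr11:98629246-98636691 on the minus strand. The others are on the minus strand, with Clock (NM_001289826) at chr5:76638893-76733817, Per2 (NM_011066) at chr1:93312559-93355905, Per3 (NM_011067) at chr4:150377764-150418774, Cry1 (NM_007771) at chr10:84594445-84647799, Cry2 (NM_009963) at chr2:92243804-92274226 and Nr1d2 (NM_011584) at chr14:19036570-19071620.

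Because the group is defined by a loop of promoter elements, the 250 bases before each start site in RefSeq (GRCm38.p6) were searched on both strands for 4 exact motifs: the E-box CACGTG bound by ARNTL and CLOCK, the D-box TTATGTAA bound by DBP and its relatives, the core TAGGTCA of the element bound by REV-ERB and ROR proteins, and the cyclic AMP response element TGACGTCA. Start sites were given for 9 of the 10 genes (13 windows, Per2 had no entry). Per1 and Cry1 held 1 E-box each, Per3 held 2 D-boxes, and 0 of the 9 genes held TAGGTCA or TGACGTCA in these windows. Over the 32851 windows of all genes, 6.02% held the E-box, 0.819% the D-box, 2.23% TAGGTCA and 1.55% TGACGTCA. The 3 windows with a match are shown because they carry the elements that name the loop, with the motif in capitals. The Per1 E-box begins 166 bases before the start site (chr11:69098699-69098948, plus strand), that of Cry1 60 bases before it (chr10:85185055-85185304, minus strand), and the Per3 D-boxes 205 and 158 bases before it (chr4:151044666-151044915, minus strand). A match describes the letters only and shows no binding.
Per1: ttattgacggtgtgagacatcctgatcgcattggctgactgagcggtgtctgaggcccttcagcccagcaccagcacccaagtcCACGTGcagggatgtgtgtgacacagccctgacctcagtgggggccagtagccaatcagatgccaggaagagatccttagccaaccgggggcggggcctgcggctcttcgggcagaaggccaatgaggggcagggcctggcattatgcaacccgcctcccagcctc
Cry1: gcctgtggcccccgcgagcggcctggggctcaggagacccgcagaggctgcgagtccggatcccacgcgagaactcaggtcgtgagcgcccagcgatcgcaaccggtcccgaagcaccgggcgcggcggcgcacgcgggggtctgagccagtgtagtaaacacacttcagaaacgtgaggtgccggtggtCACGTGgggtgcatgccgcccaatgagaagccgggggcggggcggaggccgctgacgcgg
Per3: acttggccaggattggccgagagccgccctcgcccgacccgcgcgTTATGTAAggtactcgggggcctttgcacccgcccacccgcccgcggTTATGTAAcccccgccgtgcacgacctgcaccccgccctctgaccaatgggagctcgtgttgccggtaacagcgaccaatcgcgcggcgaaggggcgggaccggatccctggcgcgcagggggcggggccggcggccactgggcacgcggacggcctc

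**Figure D1:**
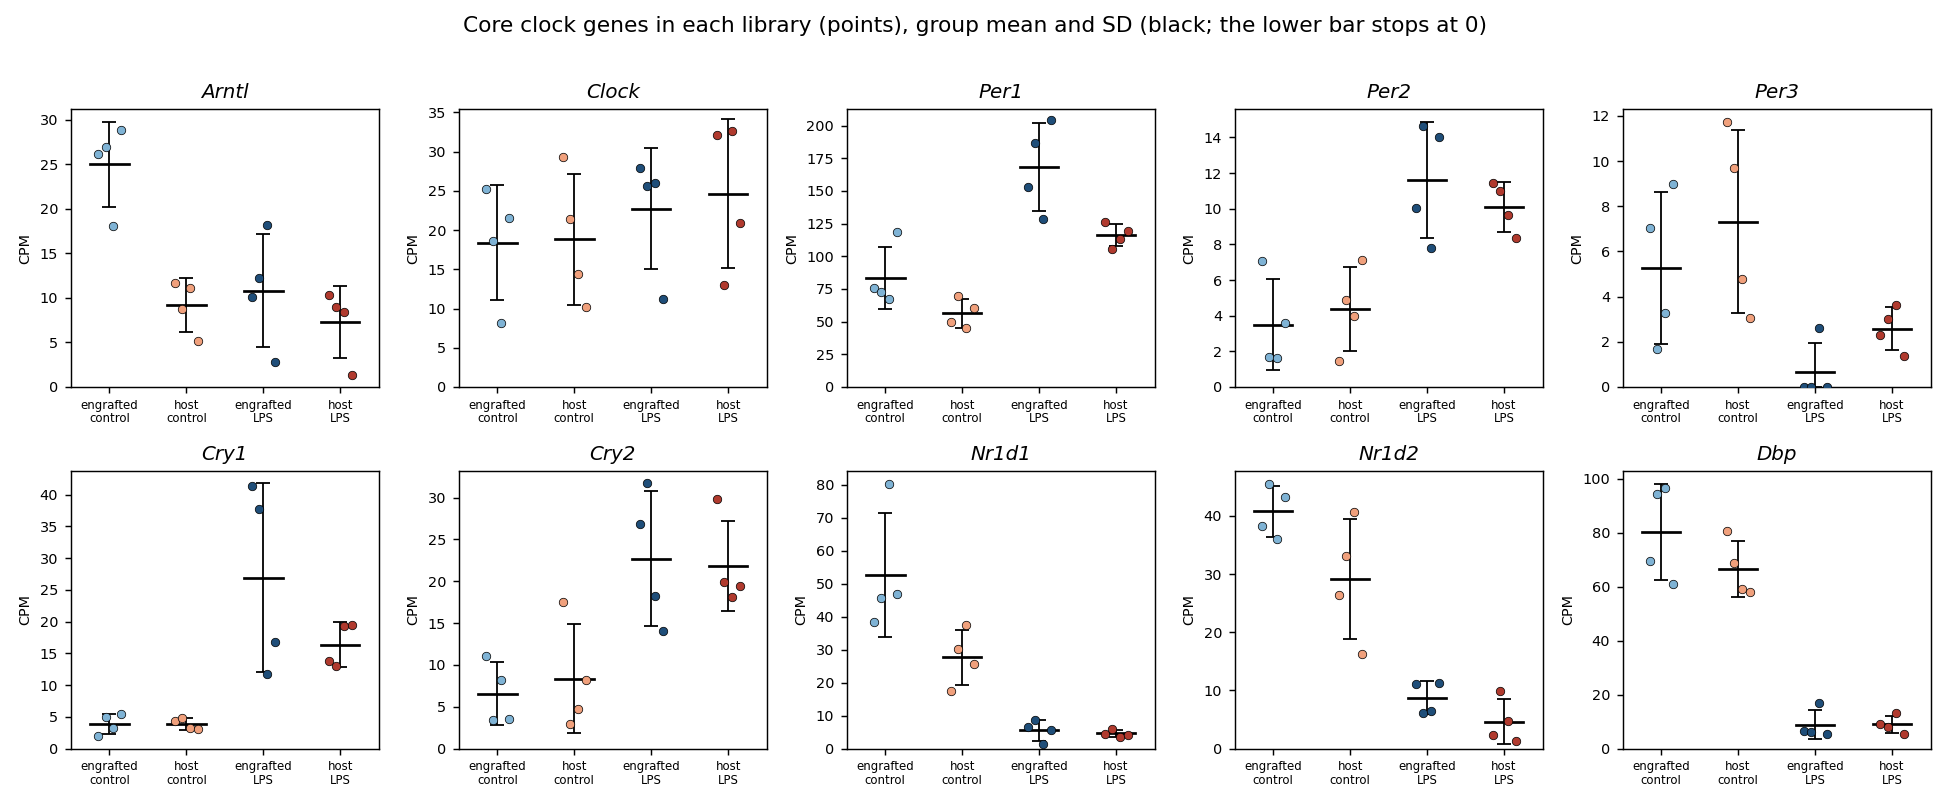
CPM of the 10 core clock genes in each of the 16 libraries (points), with the mean and SD of each group of 4 (black), and an own axis for each gene. Nr1d1, Nr1d2 and Dbp sit lower in all 8 LPS libraries than in the 8 control libraries, and Per1, Per2, Cry1 and Cry2 sit higher in the LPS libraries of either population than in its controls.

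The first question was how the clock genes of each population differed between challenged and unchallenged mice. Dbp, Nr1d1 and Nr1d2 were lower after LPS by 4.86-fold or more, and Per1 was higher by about the 2-fold threshold, both in engrafted cells and in host microglia. Cry1 and Cry2 rose in host microglia, where they could be tested. Each population was tested on its own with edgeR's quasi-likelihood test over all genes that passed a filter for low counts, and p-values were adjusted over all of these genes by the Benjamini-Hochberg method. In engrafted cells 6 of the 10 clock genes passed the filter, of which 1 rose and 4 fell at an adjusted p below 0.05, against 38.7% of the 7609 genes tested (19.4% up, 19.3% down). In host microglia 7 passed, of which 3 rose and 3 fell, against 39.7% of 8238 genes (19.2% up, 20.5% down). The 4 falls in engrafted cells also exceeded a 2-fold change, as did 21.5% of all genes tested there (10.2% up, 11.3% down). All 6 of the host calls did so, against 18% of all genes (7.66% up, 10.4% down). The median log2 fold change was -1.70 over the 6 genes tested in engrafted cells and 0.42 over the 7 tested in host microglia, with -0.01 and 0.01 over all genes. These medians cover different genes, since Arntl was tested in engrafted cells only and Cry1 and Cry2 in host microglia only. The genes tested in both populations had the same direction in each. A gene that passed the filter only through the group in which it is high had to differ, so these counts describe the tested genes and not all 10. Nr1d1 and Nr1d2 passed only through the controls in both populations, and Cry1 in host microglia only through the LPS libraries. Dbp, Arntl in engrafted cells and Cry2 in host microglia came close to this. In sorted bulk samples a change in the RNA of each cell and a change in which cells passed the gate cannot be told apart.

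Arntl, which encodes the indispensable activator of the loop, was lower after LPS in engrafted cells. It stood at 26.2, 27.0, 18.0 and 28.8 CPM in the engrafted cells of control mice 5 to 8 and at 10.1, 12.2, 18.2 and 2.80 CPM in those of LPS mice 1 to 4. The groups met at one point, where LPS mouse 3 lay just above control mouse 7. Arntl passed the filter there mainly through the control libraries, in which it is high. The fall of 1.12 on the log2 scale (SE 0.36, n = 4 against 4) had an adjusted p of 0.0187 in edgeR's test (log2 fold change -1.07 and adjusted p = 0.0316 without the filter). It lost the threshold without the library of control mouse 8 (log2 fold change -1.05, adjusted p = 0.0525), without that of LPS mouse 1 (-1.02, adjusted p = 0.0697) and with mice 4 and 8 left out (-0.88, adjusted p = 0.0626). Host microglia had 26 Arntl reads in the LPS group and 36 in the control group, with means of 7.28 and 9.18 CPM, too few for the filter. An exact two-sided permutation test of the host CPM gave p = 0.49 (n = 4 against 4), and without the filter the 95% confidence interval of the host log2 fold change ran from -1.15 to 0.62.

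Clock, which encodes the partner of ARNTL, gave no difference at this depth. Its mean was 18.4 ± 7.31 CPM (SD, n = 4) in control and 22.7 ± 7.73 CPM in LPS engrafted cells, and 18.8 ± 8.36 and 24.6 ± 9.48 CPM in host microglia. The log2 fold changes of 0.30 and 0.42 had 95% confidence intervals from -0.41 to 1.02 and from -0.27 to 1.12, with adjusted p-values of 0.513 and 0.334 in edgeR's test. A 2-fold rise was therefore within the limits in both populations.

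Per1, the period gene that also answers directly to hormonal and stress signals, had the most reads of the 10. In engrafted cells it stood at 75.5, 72.5, 67.2 and 119 CPM in control mice 5 to 8 and at 153, 187, 129 and 205 CPM in LPS mice 1 to 4. Host microglia of the same mice held 49.8, 69.9, 45.5 and 60.3 CPM without and 126, 106, 113 and 120 CPM with LPS. All LPS libraries lay above all control libraries in both populations, the nearest being control mouse 8 and LPS mouse 3 of the engrafted cells. The log2 fold change was 0.97 (SE 0.21, adjusted p = 0.00118) in engrafted cells and 1.03 (SE 0.18, adjusted p = 7.58e-05) in host microglia by edgeR's test, or 1.96-fold and 2.04-fold.

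Cry1 and Cry2 encode the cryptochromes, the strongest repressors of the ARNTL and CLOCK pair. Cry1 had 2 to 5 reads in each of the 8 control libraries. After LPS it had 37, 31, 9 and 6 reads in the engrafted cells of mice 1 to 4 (41.4, 37.8, 11.7 and 16.8 CPM) and 12, 13, 16 and 14 reads in their host microglia (13.8, 12.96, 19.3 and 19.5 CPM). Mice 1 and 2 were thus well above mice 3 and 4 in engrafted cells, whereas the 4 host libraries lay close together. In host microglia the log2 fold change was 2.04 (SE 0.38, 95% confidence interval 1.25 to 2.82, adjusted p = 0.000173), or 4.11-fold by edgeR's test. Cry1 passed the filter there only through the LPS libraries, in which it is high, so it had to differ. Without the filter the host log2 fold change was 2.06 (adjusted p = 4.89e-05, edgeR's test). For engrafted cells the filter admitted no test. Their ratio of summed reads, corrected for library size, was 8.05 (95% exact interval 4.16 to 17.4, counting error only), and an exact two-sided permutation test gave p = 0.029 (n = 4 against 4), the smallest that 4 libraries against 4 allow.

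Cry2 was at 11.1, 3.37, 8.19 and 3.60 CPM in control and at 26.8, 31.7, 18.2 and 14.0 CPM in LPS engrafted cells. The host libraries held 17.6, 2.91, 4.79 and 8.17 CPM without and 29.8, 19.9, 18.1 and 19.5 CPM with LPS. The groups did not overlap in either population, although control mouse 5 of the host came within 1 CPM of LPS mouse 3. Its log2 fold change in host microglia was 1.52 (SE 0.39, adjusted p = 0.00371, edgeR's test). Cry2 passed the filter there mainly through its LPS libraries. Without the filter its host log2 fold change was 1.53 (adjusted p = 0.000166, edgeR's test). The ratio of summed reads in engrafted cells was 3.34 (95% exact interval 2.01 to 5.81), with p = 0.029 in the exact permutation test (n = 4 against 4). Fitted without the filter over 15382 genes, Cry1 and Cry2 had log2 fold changes of 2.89 and 1.73 in engrafted cells, with adjusted p-values of 6.92e-08 and 0.000878 in edgeR's test.

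Per2 and Per3, the other period genes, had too few reads for the filter in both populations. Per2 had 1 to 7 reads in each control library and 5 to 12 in each LPS library, with means of 3.49 and 11.6 CPM in engrafted cells and 4.36 and 10.1 CPM in host microglia. Its LPS libraries lay above its control libraries in both populations (exact permutation p = 0.029 in each, n = 4 against 4), with ratios of summed reads of 2.82 (95% exact interval 1.39 to 6.201) and 2.24 (1.24 to 4.20). Without the filter the adjusted p of Per2 was 0.0592 in engrafted cells and 0.0756 in host microglia by edgeR's test. Per3 pointed the other way, with 15 reads in control and 2 reads in LPS engrafted cells, both of the latter in mouse 3, and 27 against 9 reads in host microglia. The control libraries were 7.74 times as high in engrafted cells (95% exact interval 1.80 to 69.7) and 2.60 times in host microglia (1.19 to 6.29). The Per3 groups overlapped in both populations, with p = 0.057 in the exact permutation tests (n = 4 against 4) and adjusted p-values of 0.0555 and 0.106 without the filter in edgeR's test, so no difference was called.

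**Figure D2:**
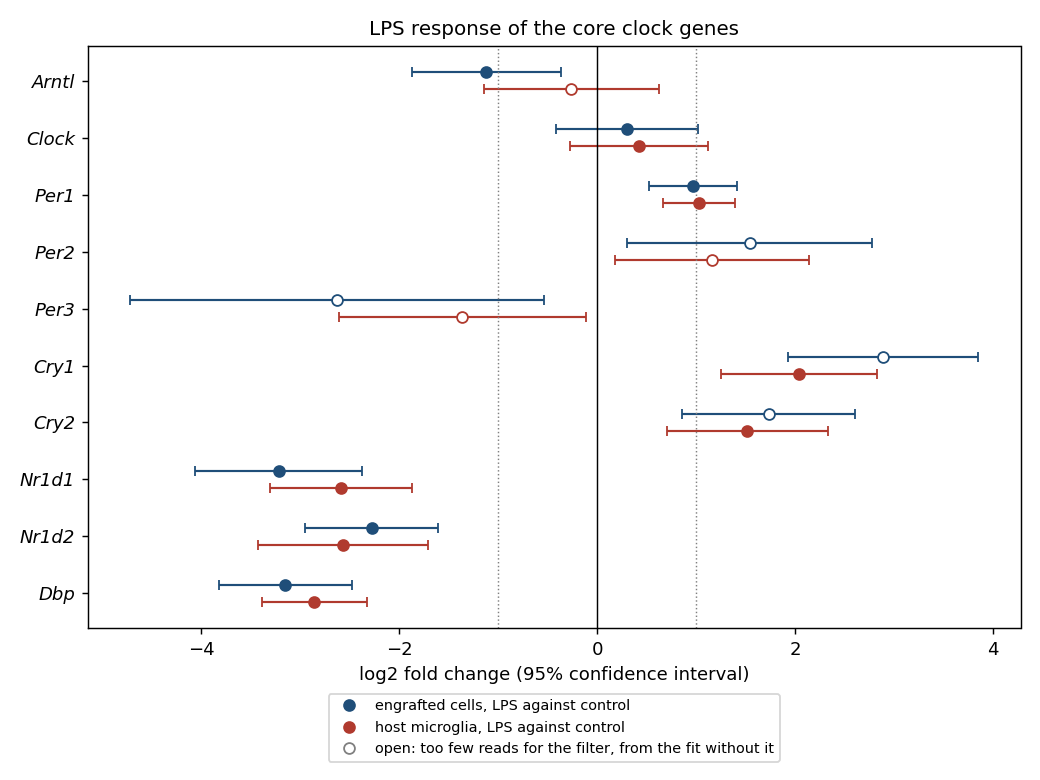
Log2 fold change of LPS against control for the 10 core clock genes with 95% confidence intervals, in engrafted cells (blue) and host microglia (red), where open circles are genes with too few reads for the filter and come from the fit without it. Dotted lines mark a 2-fold change, and the intervals of the populations overlap for each of the 10 genes.

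The largest falls that passed the test were in the REV-ERB genes and Dbp. These genes passed the filter only or mainly through the control libraries, in which they are high. Without the filter the log2 fold changes in engrafted cells and host microglia were -3.16 and -2.56 for Nr1d1. They were -2.22 and -2.54 for Nr1d2 and -3.10 and -2.835 for Dbp. Nr1d1, whose product represses Arntl, stood at 38.3, 45.5, 80.3 and 46.8 CPM in the engrafted cells of control mice 5 to 8 and at 6.71, 8.54, 1.30 and 5.61 CPM in those of LPS mice 1 to 4. In host microglia it was at 17.6, 30.1, 37.5 and 25.5 CPM without and at 4.59, 5.98, 3.62 and 4.17 CPM with LPS. The lowest control library, host mouse 5, was thus above the highest LPS library of either population. The fall was 3.22 on the log2 scale in engrafted cells (SE 0.40, adjusted p = 3e-06, 9.31-fold) and 2.59 in host microglia (SE 0.35, adjusted p = 3.25e-06, 6.00-fold), by edgeR's test.

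Nr1d2, the second REV-ERB gene, was at 38.3, 45.5, 36.0 and 43.2 CPM in control and at 11.2, 6.10, 6.51 and 11.2 CPM in LPS engrafted cells. Host libraries held 26.4, 33.0, 40.7 and 16.3 CPM without LPS, and 2.29, 9.97, 4.83 and 1.39 CPM with it. No LPS library reached a control library in either population, and the host libraries were the more scattered. Nr1d2 fell by 2.28 on the log2 scale in engrafted cells (SE 0.32, adjusted p = 1.2e-05) and by 2.57 in host microglia (SE 0.41, adjusted p = 3.34e-05) by edgeR's test. The host value rests in part on LPS mouse 2, without which it fell by 3.29.

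Dbp, the output factor of the loop, was at 69.5, 94.4, 96.7 and 61.2 CPM in control and at 6.71, 6.10, 16.9 and 5.61 CPM in LPS engrafted cells. In host microglia the values were 80.5, 69.0, 59.0 and 58.2 CPM without and 9.17, 7.98, 13.3 and 5.56 CPM with LPS. LPS mouse 3 was the highest of the LPS mice in both populations, and still lay far below every control library. Dbp fell by 3.15 on the log2 scale in engrafted cells (SE 0.32, adjusted p = 2.2e-07, 8.89-fold) and by 2.86 in host microglia (SE 0.26, adjusted p = 1.27e-08, 7.26-fold) by edgeR's test.

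Counted over all 10 genes regardless of the filter, 4 (Per1, Per2, Cry1 and Cry2) had all LPS libraries above all control libraries, 3 (Nr1d1, Nr1d2 and Dbp) had them all below, and 3 (Arntl, Clock and Per3) overlapped. These genes were the same in both populations. Among all genes tested, 35% did not overlap in engrafted cells (18.3% wholly above, 16.7% wholly below) and 35.7% in host microglia (17.1% and 18.6%). Monocyte transcripts (Ly6c2, Ccr2, Plac8, Chil3 and F13a1) moved with the challenge in engrafted cells, where 4 of the 5 rose and Ccr2 fell, against 19.4% and 19.3% of all genes tested. Ccr2 was also among the genes of engrafted cells given above, and Plac8 could not have passed the filter through the control libraries alone. The summed level of the 5 genes in engrafted cells went from 195 to 324 CPM to 1068 to 2108 CPM. Oligodendrocyte transcripts fell from 115 to 133 CPM to 61.5 to 72.9 CPM there (both of the 2 genes tested of 5), against 107 to 148 and 67.8 to 116 CPM in host microglia, and neutrophil transcripts were at 41.4 to 452 and 1.22 to 170 CPM in engrafted cells. Their part in the engrafted result was not tested. In host microglia the monocyte sum was 7.98 to 25.5 CPM without and 11.5 to 22.3 CPM with LPS, and the same 7 clock genes separated there. With mice 4 and 8 left out, Per1, Nr1d1, Nr1d2 and Dbp kept their calls in engrafted cells, Arntl lost its call, and all 6 calls in host microglia were kept.

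The ratio of Dbp to Per1 reads within a library depends neither on depth nor on scaling, and these are the members of the group with the most reads. It was 0.920, 1.30, 1.44 and 0.515 in control and 0.0438, 0.0327, 0.131 and 0.0274 in LPS engrafted cells. Host microglia gave 1.62, 0.986, 1.30 and 0.966 without and 0.0727, 0.0755, 0.117 and 0.0465 with LPS. No LPS library came near a control library, and mouse 3 had the highest ratio of the LPS mice in both populations.

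**Figure D3:**
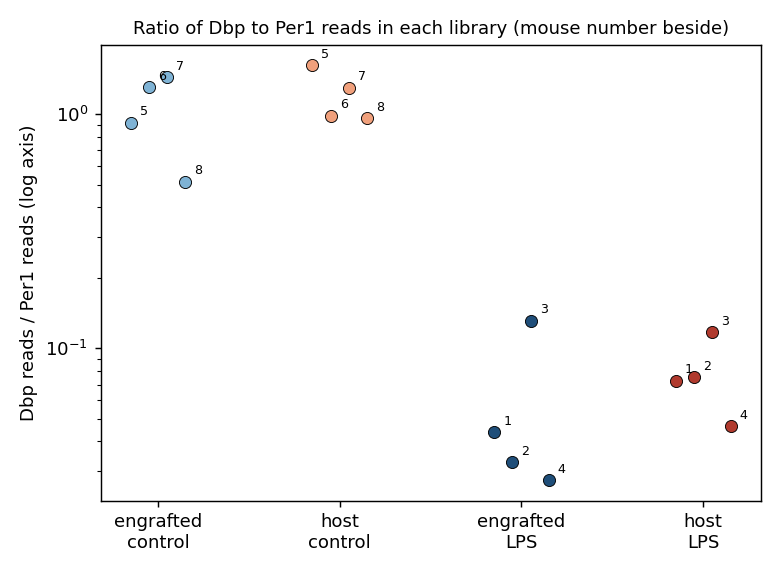
Dbp reads divided by Per1 reads in each of the 16 libraries, on a log axis, with the number of the mouse beside each point. The 8 control libraries lie between 0.515 and 1.62 and the 8 LPS libraries between 0.0274 and 0.131.

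The second question was whether engrafted cells and host microglia of the same unchallenged brains differed. Arntl, Nr1d1 and Per1 were higher in engrafted cells, by 2.83-fold, 1.88-fold and 1.52-fold, and none of the genes tested was lower. That made 3 of 6 tested clock genes with an adjusted p below 0.05, against 27.3% of the 8042 genes tested (13.6% higher, 13.7% lower). Only Arntl passed the 2-fold threshold, which 11% of all genes passed (6.25% higher, 4.73% lower). Arntl passed the filter here only through the engrafted libraries, in which it is high, so it had to differ. Nr1d1 passed the 2-fold threshold as well without the engrafted library of mouse 5 (log2 fold change 1.08) or the host library of mouse 7 (1.10). The median log2 fold change was 0.56 over the 6 genes and 0.02 over all genes. These libraries of control mice are also the reference of the LPS comparisons, so the results are not independent of them.

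Arntl stood at 18.0 to 28.8 CPM in engrafted cells (11 to 26 reads) and at 11.7, 8.74, 11.2 and 5.11 CPM in host microglia of mice 5 to 8 (5 to 14 reads). The groups did not overlap for Arntl and Nr1d1, 2 of the 10 genes, as for 26.6% of all genes tested (11.3% with engrafted cells wholly above). The log2 fold change of Arntl was 1.499 (SE 0.33, 95% confidence interval 0.82 to 2.18, adjusted p = 0.00103) by edgeR's test. Without the filter it was 1.44 (adjusted p = 0.000881, edgeR's test). Nr1d1 was higher by 0.91 on the log2 scale (SE 0.25, adjusted p = 0.00747), with its lowest engrafted library at 38.3 and its highest host library at 37.5 CPM. This call was lost without the engrafted library of mouse 7 (log2 fold change 0.64, adjusted p = 0.071), the highest of the group at 80.3 CPM.

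The Per1 difference of 0.61 (SE 0.19, adjusted p = 0.0208, edgeR's test) was the one lost most often when single libraries were left out. It was higher in engrafted cells in 4 of 4 mice, and with the mouse as a block the difference was 0.61 (adjusted p = 0.0124, edgeR's test). Taken without pairing, engrafted libraries at 67.2 to 119 CPM overlapped host libraries at 45.5 to 69.9 CPM, and the exact permutation test gave p = 0.057 (n = 4 against 4). The adjusted p rose to 0.154 without the engrafted library of mouse 8, to 0.053 and 0.0833 without the host libraries of mice 5 and 7, and to 0.138 with mice 4 and 8 left out (log2 fold change 0.40, 0.56, 0.50 and 0.44). Nr1d2 (0.50, adjusted p = 0.144), Dbp (0.33, adjusted p = 0.184) and Clock (0.12, adjusted p = 0.847) did not pass edgeR's test. Their 95% confidence intervals were -0.01 to 1.01, -0.04 to 0.70 and -0.615 to 0.855, so a 2-fold difference of Nr1d2 was within its limits. Per2, Per3, Cry1 and Cry2 had 10 to 29 reads per group and overlapped, with exact permutation p-values of 0.46 to 0.91 (n = 4 against 4). Engrafted libraries of control mice also held more monocyte transcripts (195 to 324 against 7.98 to 25.5 CPM) and neutrophil transcripts (41.4 to 452 against 0 to 1.02 CPM, with 4 of the 6 neutrophil genes at 0 in host libraries). The monocyte list shares Ccr2 with the genes of engrafted cells given above, and Ccr2 reached 227 CPM in its highest library. The sum of the astrocyte list was lower (11.5 to 23.2 against 177 to 262 CPM), but it is mostly Slc1a3. Over all libraries Slc1a3 had 1471 reads, against 2 for Gfap, 10 for Aqp4, 34 for Slc1a2 and 19 for Gja1. What part these lists had in the clock gene differences was not tested.

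**Figure D4:**
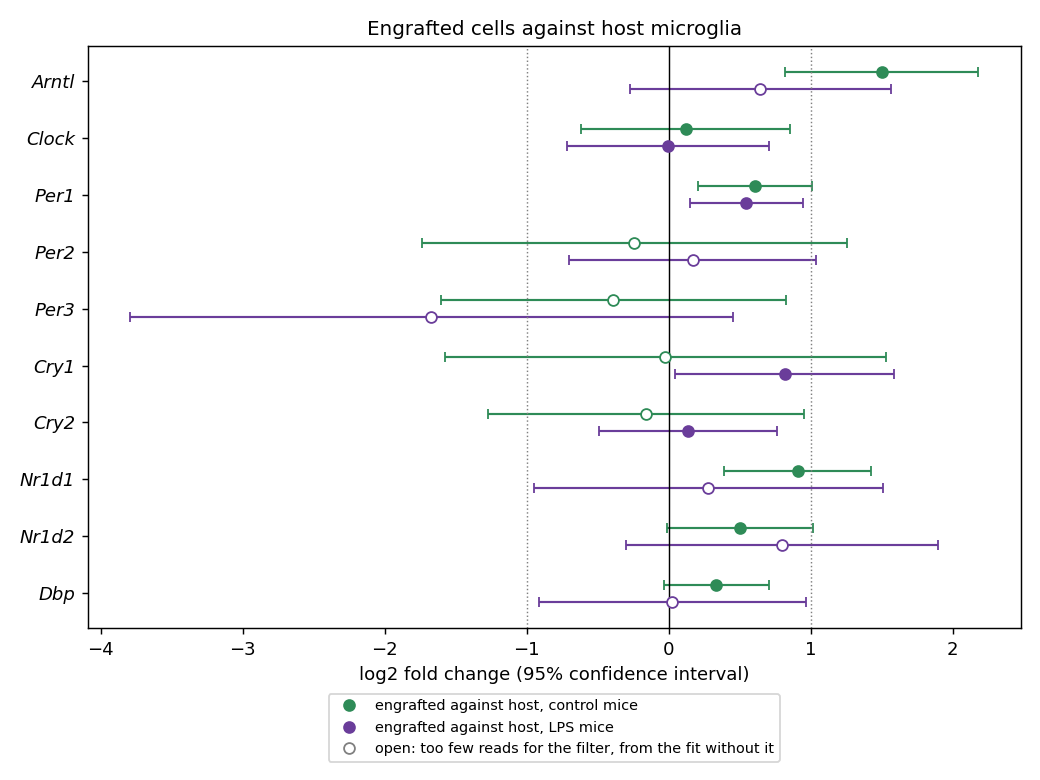
Log2 fold change of engrafted cells against host microglia for the 10 core clock genes with 95% confidence intervals, in control mice (green) and LPS mice (purple), where open circles are genes with too few reads for the filter and come from the fit without it. In control mice the intervals of Arntl, Nr1d1 and Per1 lie above 0.

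After LPS, engrafted cells and host microglia could be compared for 4 of the clock genes. By edgeR's test 0 of the 4 had an adjusted p below 0.05, 2 (Per1 and Cry1) had an unadjusted p below that value, and DESeq2 also called 0, against 17.1% of the 7843 genes tested (9.52% higher, 7.62% lower). Past a 2-fold change as well the count was again 0, against 11.1% (6.73% higher, 4.34% lower). Per1 was higher in engrafted cells by 0.55 (SE 0.19, 95% confidence interval 0.15 to 0.94, adjusted p = 0.0559), and its 4 engrafted libraries, at 129 to 205 CPM, lay above the 4 host libraries at 106 to 126 CPM (20.6% of all genes did not overlap, 10.1% with engrafted cells wholly above). Cry1 was higher by 0.82 (SE 0.37, adjusted p = 0.151). Both passed the threshold without the engrafted library of mouse 3 (Per1 0.68, adjusted p = 0.0254, and Cry1 1.11, adjusted p = 0.0294), and Per1 also when all 16 libraries shared one fit (0.53, adjusted p = 0.0396). The differences of Cry2 (0.14, 95% confidence interval -0.49 to 0.76) and Clock (-0.01, -0.72 to 0.70) changed sign with the scaling. For Dbp, Nr1d1, Nr1d2, Arntl, Per2 and Per3 the LPS libraries held too few reads, and the groups overlapped.

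Whether the LPS response itself differed between populations was tested as an interaction over all 16 libraries. By edgeR's test 0 of 8 clock genes had an adjusted p below 0.05, 0 had an unadjusted p below it, and DESeq2 called 0, against 5.88% of 8847 genes (2.97% positive, 2.9% negative). With a 2-fold threshold added it was 0 against 4.95% (2.45% and 2.5%). The difference of the responses was smallest for Per1 at -0.07 (95% confidence interval -0.63 to 0.49) and largest for Arntl at -0.85 (-2.07 to 0.37, adjusted p = 0.475). For Dbp it was -0.30 (-1.26 to 0.65), for Nr1d1 -0.65 (-1.94 to 0.63) and for Nr1d2 0.27 (-0.88 to 1.42), the last becoming 1.00 without the host library of LPS mouse 2. Cry1 gave 0.81 (-0.68 to 2.29) and Cry2 0.16 (-1.13 to 1.46). The intervals are wide, so except for Per1 differences of 2-fold between the responses could not be detected or excluded at this depth. The Arntl fall that was called in engrafted cells and not testable in host microglia is thus not shown to differ between them.

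Ordered by mean level over the 4 groups, Nr1d1 was highest in control engrafted cells (52.7 ± 18.8 CPM, SD, n = 4) and next in control host microglia (27.7 ± 8.35 CPM), followed by LPS engrafted cells (5.54 ± 3.07 CPM) and LPS host microglia (4.59 ± 1.01 CPM), where only the last 2 groups overlapped. Per1 ran from LPS engrafted cells (168 ± 33.9 CPM) through LPS host microglia (116 ± 8.73 CPM) and control engrafted cells (83.5 ± 23.8 CPM) to control host microglia (56.4 ± 10.98 CPM), with a gap between the first 2 groups only. For Dbp and Nr1d2 the single gap lay between the control groups and the LPS groups. For Per2, Cry1 and Cry2 the single gap between neighbours in the order lay below the LPS host microglia, and for Arntl, Clock and Per3 each group overlapped its neighbour.

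Other genes of the clock machinery were looked at from 4 lists with 23 genes. Of the ROR, DEC and paralog list (10 genes), 2 were tested for LPS in engrafted cells and both fell, and of 2 tested in host microglia 1 fell, against 38.7% and 39.7% of all genes called in either direction. Bhlhe41 encodes DEC2, a repressor at E-boxes. It was at 30.7 ± 9.23 CPM in control and 8.85 ± 4.43 CPM in LPS engrafted cells, and at 80.8 ± 12.9 and 38.7 ± 11.2 CPM in host microglia (SD, n = 4). It fell with LPS by 1.72 and 1.08 on the log2 scale, and engrafted cells were below host microglia by 1.28 without and 1.95 with LPS on that scale (adjusted p of 0.000759 or less in all 4 of edgeR's tests). Its paralog Bhlhe40 (DEC1) stood at 18.4 ± 2.96 CPM (7 to 19 reads) in engrafted cells and 3.06 ± 1.41 CPM (1 to 3 reads) in host microglia after LPS. It passed the filter there only through the engrafted libraries in which it is high, so no test of it is given. Rora, an activator of Arntl, was higher in control engrafted cells than in host microglia by 0.95 (adjusted p = 0.0431) and fell by 1.15 with LPS in engrafted cells (adjusted p = 0.0172). In the LPS test of engrafted cells, Rora and Bhlhe41 passed the filter only through the control libraries, in which they are high. Npas2 had 0 reads in the 16 libraries, and Arntl2 had 1.

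Of the PAR bZIP list, Nfil3 and Tef were tested with LPS, and 1 rose and 1 fell in each population. Nfil3, which encodes the repressor that competes with DBP for D-boxes, rose from 8.04 ± 4.77 to 153 ± 47.8 CPM in engrafted cells and from 5.00 ± 4.54 to 97.5 ± 25.5 CPM in host microglia (SD, n = 4). Its log2 fold changes of 4.06 and 4.16 (adjusted p = 5.93e-09 and 4.84e-09, edgeR's test) come from a gene with 0 to 15 reads in each control library. Nfil3 passed the filter mainly through the LPS libraries, in which it is high, and so came close to having to differ. Tef, a relative of Dbp, fell by 0.63 (adjusted p = 0.0344) and 0.91 (adjusted p = 0.000484), and engrafted cells of control mice were below host microglia by 0.50 on the log2 scale (adjusted p = 0.0395, edgeR's test).

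Among 8 kinases, ligases and deubiquitinases that set the life span of PER and CRY proteins, 7 were tested, of which 2 fell with LPS in engrafted cells and 3 in host microglia, and 0 rose, shares near those called over all genes (38.7% and 39.7%). Csnk1e, a kinase of the PER proteins, fell by 1.39 and 1.29 on the log2 scale (adjusted p = 2.49e-05 and 8.7e-06), and Usp2, a deubiquitinase, by 1.44 and 0.88 (adjusted p = 5.51e-05 and 0.000412). Btrc, part of the ligase that marks PER proteins for degradation, fell by 0.79 in host microglia (adjusted p = 0.0359). In control mice Csnk1e, Csnk1d and Usp2 were lower in engrafted cells by 0.46, 0.39 and 0.44 on the log2 scale (adjusted p = 0.00944, 0.0342 and 0.0236). Ncor1, the corepressor that REV-ERB proteins recruit, was higher in control engrafted cells by 0.45 (adjusted p = 0.0298) and fell by 0.57 with LPS in engrafted cells (adjusted p = 0.0224), all by edgeR's test. In the interaction 0 of the 14 tested genes of the 4 lists had an adjusted p below 0.05, against 5.88% of 8847 genes. At that share a count of 0 says little about these genes.

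**Figure D5:**
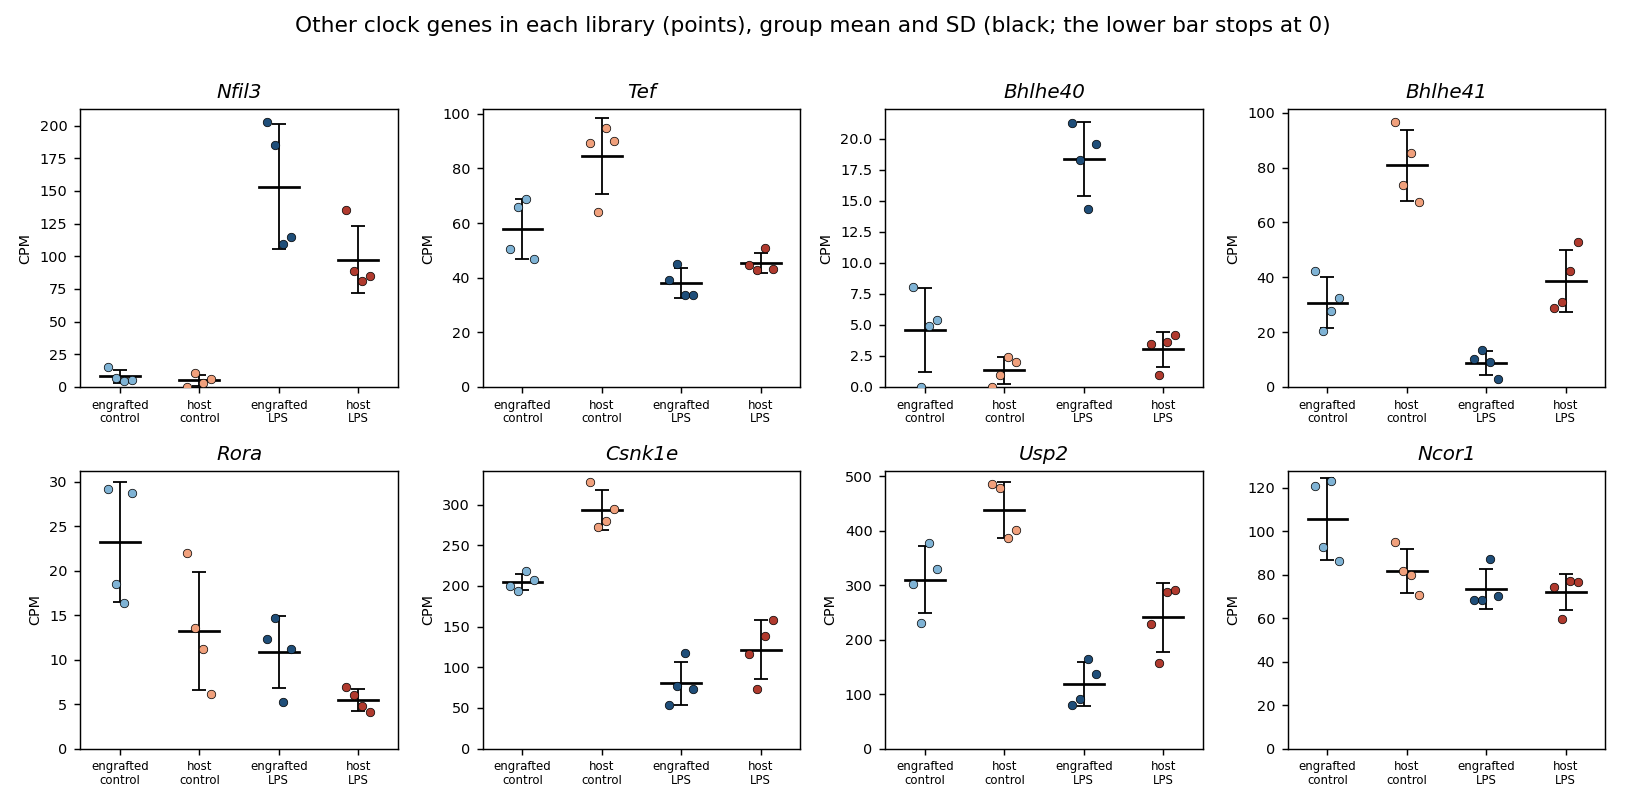
CPM of 8 further clock genes in each of the 16 libraries (points), with the mean and SD of each group of 4 (black), and an own axis for each gene. Nfil3 sits at 80.9 CPM or more in every LPS library and at 15.1 CPM or less in every control library, while Csnk1e, Usp2 and Bhlhe41 are lower after LPS in each population.

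Genes of other pathways known to act on Per1 also moved with the challenge. Of 7 glucocorticoid receptor targets, 6 rose and 1 fell in engrafted cells and 5 rose in host microglia (over all genes 19.4% rose and 19.3% fell, and 19.2% and 20.5%), with a median log2 fold change of 4.00 and 3.01 over the 7. Among the genes that rose, Zbtb16 and Klf9 had too few reads to be tested between the populations of control mice. They passed the filter only or mainly through the LPS libraries, in which they are high, so the filter favoured their rises, which enter these counts and medians. Their summed level was 751 to 911 CPM without and 2233 to 2958 CPM with LPS in engrafted cells, and 1467 to 2003 and 2733 to 3148 CPM in host microglia. Immediate early genes, which respond to tissue handling among other stimuli, had 2 up, 7 down and 6 without a call of 15 tested in engrafted cells, and 2 up and 10 down of 16 in host microglia. Their summed level was 23023 to 25987 CPM without and 16249 to 30931 CPM with LPS in engrafted cells, which overlap, and 17972 to 24144 and 13320 to 18837 CPM in host microglia, which overlap as well. In control mice 8 of the 15 tested immediate early genes were higher and 2 lower in engrafted cells than in host microglia, in the same libraries in which Per1 was higher, while of 5 tested glucocorticoid receptor targets 2 were higher and 3 lower (13.6% and 13.7% of all genes). What part either list has in the values of Per1 was not tested. Tnf, Ccl5 and Tnfaip3, which the paper reports as induced by LPS in both populations, rose in both here as well. The paper's report rests on the same experiment, so this is no independent check of the challenge.

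The expression profiles most like those of the clock genes were sought among the 6781 genes whose mean reached 20 CPM, by the root mean square difference of log2(CPM + 1) over the 16 libraries after centring each gene. Per1 lay closest to Pdcd6 (0.21), Dusp1 (0.26), an immediate early phosphatase, and Tsc22d3 (0.28), a glucocorticoid receptor target. Dbp lay closest to Slc9a9 (0.48), Enc1 (0.52) and Plxdc1 (0.53). Nr1d1 had Enc1 (0.57), Il15 (0.58) and Slc9a9 (0.63), and Nr1d2 had Ly9 (0.54), Il15 (0.61) and Slc9a9 (0.61), so Slc9a9 was among the 3 nearest to each of the genes that fell most. Cry1 was nearest to Sbno2 (0.43), Flna (0.45) and Mir22hg (0.47), Cry2 to Ubp1 (0.49), Phlda1 (0.51) and Pgs1 (0.52), and Arntl to Tnni3 (0.47), Cmc1 (0.59) and Cd48 (0.61). These distances describe the 16 libraries, which share mice and depth, and carry no test.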

How the data were processed

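The deposited table holds raw counts of reads, with no normalization, for 24411 genes. Per the study's methods and the submitters' processing notes, MARS-seq derived libraries were mapped to mm9 with HISAT, uniquely mapped reads were kept, and HOMER counted sense-strand reads over exons, with a single RefSeq transcript standing for each gene. Further samples of the series were not analysed here. Every column used belongs to 1 of the 16 libraries.

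Tests were run with edgeR 4.0.16 under R 4.3.3 (filter with minimum count 10 and minimum total 15, TMM, quasi-likelihood test, prior count 0.125), with Benjamini-Hochberg adjustment over all genes tested. Calls required an adjusted p below 0.05, and where stated a change above 2-fold. Standard errors were derived from each fold change and the F value of its test. CPM used TMM sizes over the 16 libraries. Genes that failed the filter were compared by two-sided exact permutation tests of CPM and by ratios of summed reads with exact intervals that cover counting error only. The fits were tested on simulated data.

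Replicates are separate mice, and each mouse gave an engrafted and a host library, per the series' design text. After removal of group means, Pearson's r between both libraries of a mouse was -0.0176 to 0.258 and above 0.1 in 4 of 8 mice, against means of -0.0751 to 0.00725 with other mice. No mouse term is described by the study, and it entered as an alternative only. The other alternatives were RLE size factors, library totals, DESeq2 1.42.0, no filter, a minimum of 10 reads per library, one fit of all 16 libraries, leaving out each library and, chosen after seeing the data, a prior count of 2 and leaving out mice 4 and 8.

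The 10 genes and all lists were chosen with earlier results of these data known. All 10 are named. From 4 further clock lists genes with an adjusted p below 0.05 in at least 1 comparison could be named, and the other lists are given by counts, sums and examples. Profiles were compared for core genes that passed both thresholds in at least 1 comparison. A further microglial marker is not reported here. Marker sums were also taken for neurons (2.80 to 157 CPM), astrocytes (8.41 to 23.2 CPM in engrafted, 147 to 262 CPM in host libraries, mostly Slc1a3), endothelial cells (6.55 to 40.5 CPM), B cells (at most 5.61 CPM), T and NK cells (at most 22.4 CPM) and neutrophils (1.22 to 452 CPM in engrafted, at most 2.78 CPM in host libraries).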

Additional observations from a re-analysis of the deposited data

Results flagged for a closer look

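In 5 of the 40 combinations of gene and group, 1 of the 4 libraries stood further from the others than Dixon's criterion allows, which chance gives in about 1 of 20. In the engrafted cells of LPS mice, Clock was at 11.2 CPM in mouse 4 against 25.6 to 28.0 CPM in the others, on 4 reads in the shallowest library. Dbp was at 16.9 CPM in LPS mouse 3 against 5.61 to 6.71 CPM, and Per3 at 2.60 CPM in the same library against 0 in the others, on 13 and 2 reads. In control engrafted cells Per1 was at 119 CPM in mouse 8 against 67.2 to 75.5 CPM, a library that also held 2877.7 CPM of red blood cell transcripts. In LPS host microglia Cry2 was at 29.8 CPM in mouse 1 against 18.1 to 19.9 CPM. What set these libraries apart was not tested.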

How the results depend on the processing

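Of the clock gene values, 14 had an adjusted p below 0.05. Under the alternatives other than leaving out single libraries the 14 values kept direction and side of the threshold in 103 of 105 refits. Refits in which the rule of 10 reads in every library left a gene untested are not counted. The 2 lost with mice 4 and 8 left out are Per1 between populations of control mice and Arntl with LPS in engrafted cells, both given above. With single libraries left out the 14 values kept direction and side of the threshold in 106 of 112 refits, and 6 lost the threshold. With the mouse as a replicate block, 3 clock genes differed between populations in control mice (Arntl by 1.47) and 0 after LPS, and the block changed no call. Requiring 10 reads in every library left 4 clock genes testable between populations of control mice, 1 with LPS in engrafted cells and 2 in host microglia. Genes past both thresholds then numbered 0, 0 and 1, and those past the adjusted p alone 1 and 1 with LPS, because fewer genes were tested. Without the filter 7 genes passed both thresholds with LPS in engrafted cells. In one fit of all 16 libraries 1 gene (Per1) passed the adjusted p between populations after LPS.

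With each library left out in turn, genes past the adjusted p numbered 2 to 3 between populations in control mice (1 to 2 past both thresholds), 0 to 2 after LPS (0 to 1), 4 to 7 with LPS in engrafted cells (4 to 6) and 6 in host microglia (5 to 6), and 0 in the interaction. Signs turned only for uncalled values. Between populations after LPS, Clock became 0.004 with RLE size factors and 0.074 without mice 4 and 8, and Cry2 -0.01 with library totals. Without mice 4 and 8 Clock became -0.14 between populations in control mice, and the interaction became 0.247 for Clock and 0.058 for Per1. Left-out libraries gave Clock -0.109 to 0.353 in control mice and -0.244 to 0.152 after LPS, Cry2 -0.047 to 0.316 after LPS, and in the interaction Clock -0.362 to 0.119, Per1 -0.177 to 0.135 and Cry2 -0.339 to 0.63. Library totals shifted the median of all genes between populations after LPS by -0.147 and the share of calls higher in engrafted cells from 55.5% to 40.2%. Over all genes, calls past both thresholds numbered 883 between populations of control mice (1454 without the filter, 402 with 10 reads in every library), 868 after LPS (1352 and 381), 1636 and 1484 with LPS in engrafted cells and host microglia (816 and 871 with 10 reads) and 438 in the interaction (251), and those past the adjusted p after LPS 1345 (834). The alternatives without mice 4 and 8 and with a prior count of 2 were chosen after seeing the data. Other causes of these shifts were not tested. Depth limits Per2, Per3, Cry1, Cry2 and, after LPS, Nr1d1, Nr1d2 and Dbp, which rest on a few reads per library. It also limits Arntl, which had 10 or more reads in 7 of the 16 libraries.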
